A study of Mus musculus with 6 samples.

Results

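The small leucine-rich proteoglycans are secreted proteins of the extracellular matrix, and their transcripts were followed here in cochleae of late mouse embryos that lack insulin-like growth factor 1 (Igf1). The members were the 10 genes Dcn, Bgn, Aspn, Fmod, Lum, Prelp, Kera, Omd, Epyc and Ogn, chosen by name, and every probe set that the platform annotation gives to one of them alone was used. That rule found 20 probe sets of the 22626 on the array that are not controls, and 10 genes of 12393 with a probe set of their own. The rule uses names and no measured value, but the members were chosen with earlier results of these data known.

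The Igf1 null group (Igf1-/-) and the wild type group (Igf1+/+) were C57BL/6J mouse embryos of embryonic day 18.5, obtained by mating heterozygotes. Each sample was an RNA pool from 4 cochleae, dissected with the otic capsule (the cartilage and bone around the cochlea) and without vestibular tissue. There were 3 independent pools per genotype, each labelled with biotin as cRNA and hybridised to 1 Affymetrix array. Because the capsule was kept, the tissue is a mixture of skeletal, connective and sensory cells, and in such bulk RNA fewer cells of a type and less RNA per cell cannot be told apart.

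Each member has a protein core of leucine-rich repeats that binds collagen, and most carry sugar chains on it. Decorin and biglycan carry chondroitin or dermatan sulphate, whereas fibromodulin, lumican, keratocan and osteoadherin can carry keratan sulphate. By coating growing collagen fibrils these proteins set fibril thickness and spacing, and several of them also bind transforming growth factor beta and other signals held in the matrix. In the inner ear they belong to the connective tissue of the capsule and the spiral ligament, and epiphycan is also known from cochlear supporting cells of the mouse.

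The 6 arrays correlated between 0.939 and 0.960 across probe sets and no arrays held identical values. The deposited array medians ran from 5.61 to 6.36 on the log2 scale, so all values below are log2 signals after quantile normalization. The number of arrays limits the precision, and p-values measure only the spread between pools. Igf1 itself was lower in every null array than in every wild type array at its 3 probe sets, with differences of -0.55 ± 0.15, -0.46 ± 0.12 and -0.99 ± 0.12 (null minus wild type, ± SE) and adjusted p between 0.600 and 0.889 in limma. Groups were taken from the titles, whose genotypes the Igf1 signal follows, although the source name of the null samples bears a +/+ mark. That field also gives a marginally later embryonic age for wild type replicate 2. The null arrays kept an Igf1 signal above background, with means of 6.93, 10.59 and 7.06 at the 3 probe sets, against 7.47, 11.05 and 8.05 in wild type. Whether a probe set lies in the deleted part of the gene is not given in the labels, so these probe sets are a limited check of the genotype. The 3′ minus 5′ signal of the beta-actin control probe sets, a measure of RNA integrity, was 0.94 ± 0.12 in null and 0.76 ± 0.04 in wild type (SD, n = 3 each, exact permutation p = 0.1). For the Gapdh control the same measure was 0.35 ± 0.17 in null and 0.25 ± 0.06 in wild type, with an exact permutation p of 0.5. The part of RNA integrity in the differences given here was not tested.

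The family was among the brightest signals in the cochlea. Averaged over the 6 arrays, decorin (Dcn) had a log2 signal of 11.88 and ranked 74th of the 12393 genes, and biglycan (Bgn), with 11.76, ranked 81st. Osteoglycin (Ogn) followed with 11.22 and lumican (Lum) with 11.09. Epiphycan (Epyc) had 10.98 and fibromodulin (Fmod) 10.60. Each of these 6 genes stood above the 97th percentile of all genes. Asporin (Aspn), with 9.58, stood at the 93.5th percentile and osteoadherin (Omd), with 9.32, at the 91.6th percentile. Prelp had 7.71, at the 69.6th percentile, and keratocan (Kera) 6.58, at the 49.1st percentile. All 10 exceeded, on every array, the background of 3.93, which is the 95th percentile of 65 probe sets for olfactory and vomeronasal receptors.

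Neighbours in that order mostly had overlapping ranges over the 6 arrays. Within arrays, Prelp was above Kera on all 6, and the other neighbours with overlapping ranges kept their order on 4 or 5 of the 6. The ranges were apart only between biglycan and osteoglycin, whose means differed by 0.54, and between osteoadherin and Prelp, whose means differed by 1.62. The order is one of signals and not of transcript amounts, because probes differ in how strongly they respond. The 6 probe sets of Fmod illustrate this, with means over the wild type arrays that ran from 7.26 to 11.03 for the same gene.

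**Figure D1:**
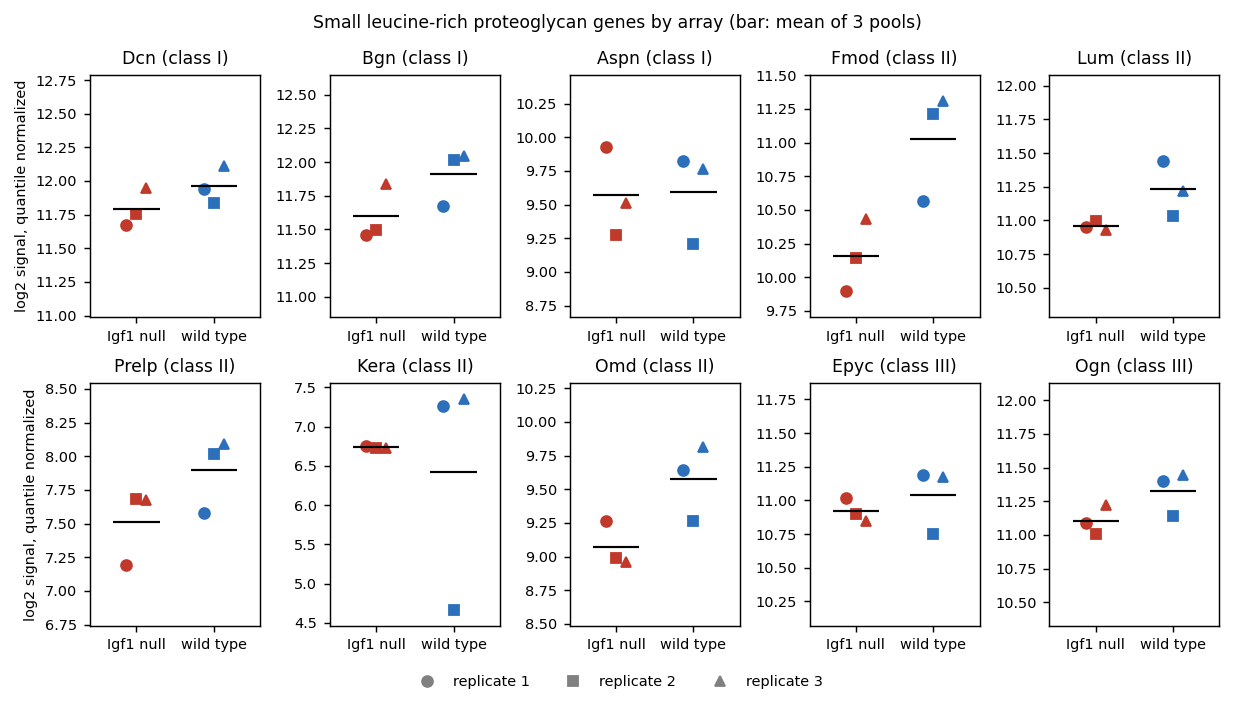
Log2 signal (vertical axis, quantile normalized) of each of the 10 members at its brightest probe set, with 1 point per array, a bar at each group mean and an axis of its own per gene, the Igf1 null arrays left of the wild type arrays. Fmod, Lum and Omd show null points wholly below the wild type points, and 1 wild type array lies at 4.67 for Kera, far under the others.

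Set against wild type, 9 of the 10 members had a lower mean signal in Igf1 null cochleae and 1 (Kera) a higher one, with a median difference of -0.25 on the log2 scale. Among all 12393 genes 48.7% had a lower mean in null and the median difference was 0.01. With each array centred on its median in place of quantile normalization, 8 members were lower, Aspn turned to 0.039 and the median over the members was -0.15, beside 44.6% of all genes and 0.03. On the values as deposited 9 members were lower with a median of -0.32, but there 75.8% of all genes were lower and their median was -0.14. None of the members passed the test, with 0 called at an adjusted p below 0.05 in limma (Benjamini-Hochberg), beside 0% of all genes and 0% of all probe sets. At an unadjusted limma p below 0.05 the count was 2 members, Fmod and Omd, beside 612 genes or 4.94% of all. In 3 members, Fmod, Lum and Omd, every null array was below every wild type array, which held for 4.98% of all genes. With median centring that separation stayed for Fmod, while the Lum and Omd groups overlapped. The opposite separation occurred in 0 members and in 5.62% of all genes. By probe set, 7 of 20 were separated with null lower, beside 5.3% of all probe sets, and 0 with null higher, beside 5.53%. Most of the 7 read Fmod in the same pools, so this count holds 1 gene several times. With 3 arrays a group, the smallest two-sided p that an exact permutation test can give is 0.1. Among the 1240 genes from the 90th percentile of signal upward, which held 8 of the members, 49.8% were lower in null and 5.32% were separated in that direction.

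**Figure D2:**
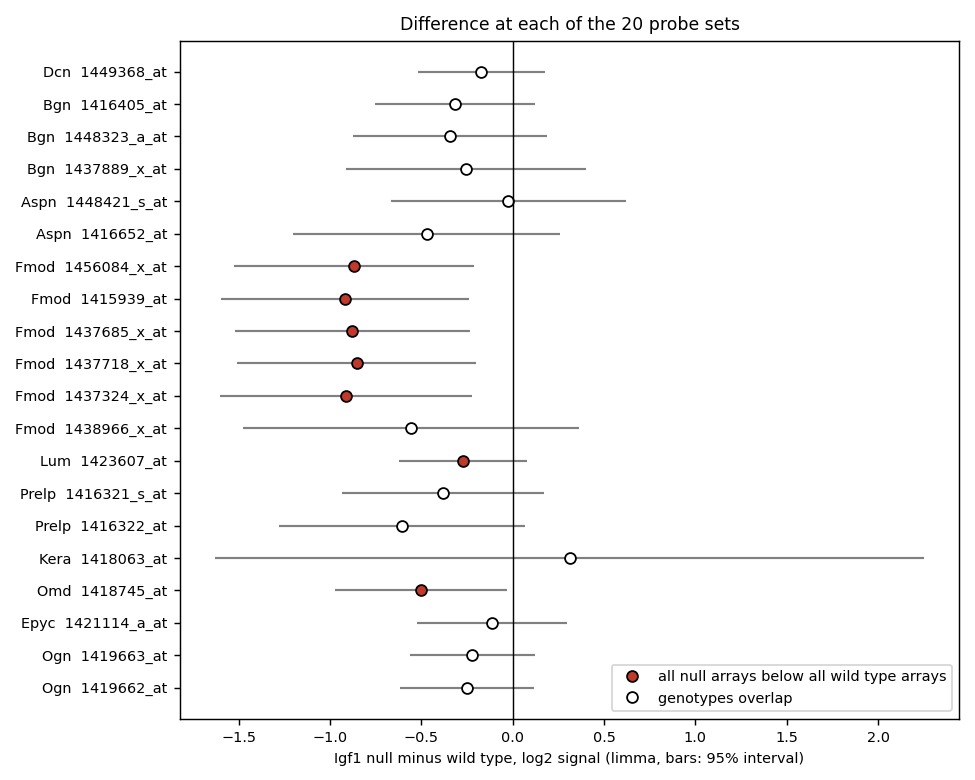
Difference in log2 signal, null minus wild type (horizontal axis), at each of the 20 probe sets (points) with 95% confidence intervals from limma as bars, filled where all null arrays lay below all wild type arrays. The filled points are 5 probe sets of Fmod and those of Lum and Omd, and the Kera interval is the widest.

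Fmod had the largest difference of the family. Fibromodulin binds type I and type II collagen, steers the maturation and cross-linking of fibrils, and is abundant in cartilage and tendon. At its brightest probe set (1456084_x_at) the log2 signal was 9.90, 10.15 and 10.44 in null replicates 1, 2 and 3, against 10.56, 11.21 and 11.31 in wild type replicates 1, 2 and 3. All 3 null arrays were below all 3 wild type arrays, although the highest null value and the lowest wild type value were close. The means were 10.16 ± 0.27 in null and 11.03 ± 0.41 in wild type (SD, n = 3 each), a difference of -0.87 ± 0.26 (SE, 95% interval -1.52 to -0.22) or a signal ratio of 0.548. The unadjusted limma p was 0.0179 and the adjusted p 0.926.

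The same direction was seen at all 6 Fmod probe sets. The second brightest (1415939_at) gave 8.71, 9.22 and 9.15 in null and 9.46, 10.20 and 10.17 in wild type. The differences at 1415939_at, 1437685_x_at, 1437718_x_at and 1437324_x_at were -0.92 ± 0.27, -0.88 ± 0.25, -0.85 ± 0.26 and -0.91 ± 0.27 (SE), and at none of them did the groups overlap. At the dimmest probe set (1438966_x_at) the values were 6.58, 6.67 and 6.87 in null and 6.48, 7.54 and 7.77 in wild type. There the difference of -0.56 ± 0.36 came with overlapping groups, because wild type replicate 1 was the lowest array of all. The 6 probe sets read the same pools and the same gene, so they repeat 1 measurement and are not replicates of it.

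Osteoadherin (Omd), known from mineralised bone matrix, had the second largest difference among the brightest probe sets. Its signal was 9.26, 8.99 and 8.96 in null and 9.64, 9.27 and 9.81 in wild type. The groups were barely separated, with null replicate 1 just below wild type replicate 2. The means of 9.07 ± 0.16 in null and 9.57 ± 0.28 in wild type (SD, n = 3 each) differed by -0.50 ± 0.18 (SE, 95% interval -0.96 to -0.04), with an unadjusted limma p of 0.0377 and an adjusted p of 0.972.

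Lumican (Lum), which spaces collagen fibrils in the cornea and other connective tissues, was nearly constant among the null pools. Its signal was 10.95, 10.99 and 10.93 in null against 11.44, 11.03 and 11.22 in wild type. All null arrays were again lower, while wild type replicate 2 came within a small step of them. The means were 10.96 ± 0.03 in null and 11.23 ± 0.20 in wild type (SD, n = 3 each), and the difference was -0.27 ± 0.13 (SE, 95% interval -0.61 to 0.06, limma adjusted p 0.998), or -0.17 without wild type replicate 1.

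The other members of the same subclass, Prelp and Kera, did not separate by genotype. Prelp, a basic protein that binds heparan sulphate and collagen at basement membranes, gave 7.19, 7.68 and 7.68 in null and 7.58, 8.01 and 8.09 in wild type at its brightest probe set. Only wild type replicate 1 lay within the null range, and the difference was -0.38 ± 0.21 (SE, 95% interval -0.92 to 0.16), or -0.22 without null replicate 1. The second Prelp probe set (1416322_at) gave 6.42, 6.93 and 6.89 in null and 6.89, 7.48 and 7.68 in wild type, a difference of -0.61 ± 0.27. Keratocan (Kera), a proteoglycan of the cornea, gave 6.75, 6.73 and 6.73 in null and 7.26, 4.67 and 7.35 in wild type. The null pools were almost identical, whereas wild type replicate 2 lay below every null array and the other wild type arrays above every null array. That 1 library set the sign of the Kera difference, which was 0.31 ± 0.77 (SE) with it and -0.57 without it.

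In the subclass of decorin, biglycan and their relative asporin, the groups overlapped in every case. Dcn, the best studied regulator of fibril growth in the family, gave 11.67, 11.75 and 11.95 in null and 11.94, 11.84 and 12.11 in wild type, a difference of -0.17 ± 0.13 (SE, 95% interval -0.50 to 0.16), or -0.10 without null replicate 1 and likewise without wild type replicate 3. Null replicate 3 lay within the wild type range and the other null arrays below it. Bgn, which takes part in bone and cartilage matrix, gave 11.46, 11.50 and 11.84 in null and 11.68, 12.02 and 12.04 in wild type, a difference of -0.32 ± 0.17 (95% interval -0.74 to 0.11). Its other probe sets differed by -0.34 ± 0.21 and -0.26 ± 0.26, so the 3 probe sets gave alike sizes. Aspn, which lacks the chondroitin or dermatan sulphate of decorin and biglycan and binds collagen and transforming growth factor beta, was less settled. At the brighter Aspn probe set (1448421_s_at) the signal was 9.93, 9.28 and 9.51 in null and 9.82, 9.20 and 9.76 in wild type, a difference of -0.02 ± 0.25. At the dimmer Aspn probe set (1416652_at) it was 9.37, 8.82 and 8.70 in null and 9.59, 8.97 and 9.75 in wild type, a difference of -0.47 ± 0.29. The Aspn probe sets therefore disagreed in size, most in replicate 3.

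The remaining subclass held Epyc and Ogn. Epyc, a proteoglycan of growth cartilage, gave 11.02, 10.90 and 10.85 in null and 11.19, 10.75 and 11.17 in wild type. Its wild type arrays spanned both the highest and the lowest value, and the difference was -0.11 ± 0.16 (SE, 95% interval -0.51 to 0.28). It was -0.04 without wild type replicate 1, -0.26 without wild type replicate 2 and -0.04 without wild type replicate 3. Ogn, also called mimecan, gave 11.09, 11.01 and 11.22 in null and 11.40, 11.14 and 11.45 in wild type, a difference of -0.22 ± 0.13 (95% interval -0.55 to 0.10). Wild type replicate 2 was the only one of its group inside the null range. The second Ogn probe set differed by -0.25 ± 0.14.

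The replicate numbers in the titles added a further description. Subtracting the wild type array from the null array of the same number, 7 of the 10 members were lower in null in all 3 pairs, beside 14% of all genes, and 0 were higher in all 3. For Fmod the differences of pairs 1, 2 and 3 were -0.66, -1.07 and -0.87. Among the brightest probe sets, which these counts use, that of Prelp was the steadiest, with -0.39, -0.33 and -0.42. The second Prelp probe set gave -0.47, -0.55 and -0.79. Omd gave -0.38, -0.27 and -0.85, while Lum gave -0.49, -0.04 and -0.29. The mixed members were Epyc, Aspn and Kera, of which Kera gave -0.51, 2.06 and -0.62. The label depended on the probe set. The dimmer Aspn probe set was lower in all 3 pairs, and the dimmest Bgn probe set was mixed, with 0.03, -0.50 and -0.30. With the replicate number as a block no member passed the test. The members at an unadjusted limma p below 0.05 were then Fmod (0.00517) and Prelp (0.0224), while Omd had 0.0511, and the limma adjusted p ran from 0.719 for Fmod to 0.987 for Aspn.

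The members fell into groups of neighbours on the chromosomes, and the lowest wild type array was listed by group. In the RefSeq table of assembly GRCm38.p6 Prelp and Fmod are adjacent coding genes on chromosome 1. Dcn, Lum, Kera and Epyc follow each other on chromosome 10, and Aspn, Omd and Ogn on chromosome 13, while Bgn lies alone on chromosome X. Among the wild type arrays replicate 2 was the lowest for all 7 members of the clusters on chromosomes 10 and 13. For Fmod, Prelp and Bgn the lowest array was replicate 1, in wild type and in null alike. Wild type replicate 3 was above the gene's mean in 10 of 10 members and the highest array of the 6 in 7 of them, and null replicate 2 was below the mean in 9. Arrays were few, so these patterns are a description of these pools. How many of all genes share them was not computed, so they are not shown to be particular to the members or to the clusters.

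**Figure D3:**
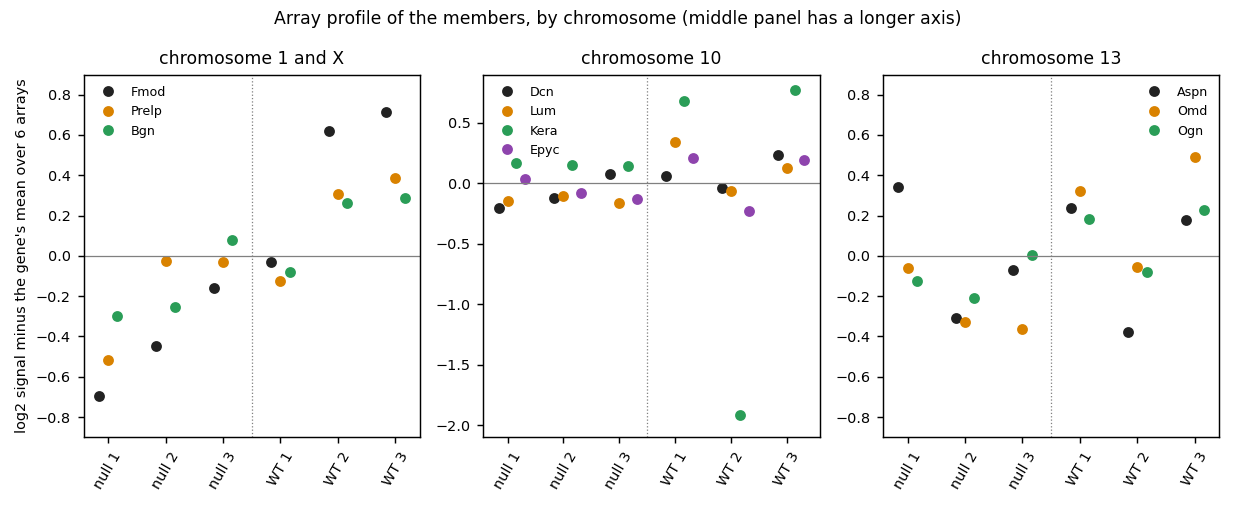
Deviation of each member from its own mean over the 6 arrays (log2, vertical axis) by array (horizontal axis, null arrays left), in panels by chromosome, of which the middle one has a longer axis. Replicate 1 is the lowest array of its genotype for Fmod, Prelp and Bgn, and wild type replicate 2 the lowest wild type array for the members on chromosomes 10 and 13.

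Promoter windows are printed for the members whose lowest arrays were shared across chromosomes (Fmod, Prelp and Bgn) and, for comparison, for Ogn of the chromosome 13 cluster. They come from RefSeq on GRCm38.p6 and span 250 bases before to 50 after the gene's start, written 5′ to 3′ on the gene's strand. They lie at chr1:134037004-134037303 on the plus strand for Fmod, chr1:133921352-133921651 on the minus strand for Prelp, chrX:73483351-73483650 on the plus strand for Bgn and chr13:49607765-49608064 on the plus strand for Ogn. Capitals mark the matches described after the sequences.
Fmod: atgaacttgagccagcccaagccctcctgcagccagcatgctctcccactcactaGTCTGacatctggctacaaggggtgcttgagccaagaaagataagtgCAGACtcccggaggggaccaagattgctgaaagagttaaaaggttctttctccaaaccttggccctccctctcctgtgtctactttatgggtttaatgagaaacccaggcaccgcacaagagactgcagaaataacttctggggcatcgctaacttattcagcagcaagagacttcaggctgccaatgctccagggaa
Prelp: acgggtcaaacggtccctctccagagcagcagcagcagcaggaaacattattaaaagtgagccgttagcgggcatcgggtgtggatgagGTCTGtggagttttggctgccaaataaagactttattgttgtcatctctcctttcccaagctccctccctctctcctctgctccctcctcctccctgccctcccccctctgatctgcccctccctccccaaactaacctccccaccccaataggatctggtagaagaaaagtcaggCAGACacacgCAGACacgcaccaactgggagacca
Bgn: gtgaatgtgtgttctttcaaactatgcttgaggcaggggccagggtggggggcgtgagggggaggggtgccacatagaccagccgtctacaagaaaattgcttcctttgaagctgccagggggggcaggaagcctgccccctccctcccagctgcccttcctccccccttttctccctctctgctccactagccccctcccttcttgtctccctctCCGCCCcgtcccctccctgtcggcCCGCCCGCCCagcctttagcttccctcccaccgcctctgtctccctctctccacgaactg
Ogn: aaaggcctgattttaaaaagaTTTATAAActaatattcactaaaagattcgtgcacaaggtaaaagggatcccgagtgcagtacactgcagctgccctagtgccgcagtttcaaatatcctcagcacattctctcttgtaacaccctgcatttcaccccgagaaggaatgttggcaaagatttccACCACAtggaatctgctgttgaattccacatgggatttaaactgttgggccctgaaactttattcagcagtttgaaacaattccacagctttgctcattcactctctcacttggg
The 6 motifs searched on both strands were the letters TATAAA of the TATA box, GGGCGG of the GC box, the FoxO core GTAAACA, the RUNX core TGTGGT, the SOX core ACAAAG and the SMAD core GTCTG. The last is contained in none of the others. In Fmod the capitals are 2 matches to GTCTG and in Prelp 3, and no other member window held that motif, which 49.6% of the 32851 windows in the table hold. In Bgn they are 3 matches to GGGCGG on the other strand, of which the last 2 overlap, a motif held by 35.7% of windows. In Ogn they are TATAAA on both strands, overlapping, and TGTGGT on the other strand, held by 13.6% and 16.8% of windows. The windows differed in base composition, with a GC content of 51.0% in Fmod, 55.3% in Prelp, 63.7% in Bgn and 42.3% in Ogn, beside a median of 52.7% over all windows. Omd, the other separated member with a window, held none of the 6 motifs. A match describes letters only and is not a binding site.

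Within arrays Fmod was also compared with each of the other 9 members. The signal of Fmod minus that of Dcn was -1.77, -1.61 and -1.51 in null and -1.38, -0.62 and -0.80 in wild type. It was thus lower in every null array, with a mean difference of -0.70. Fmod was picked as the member with the largest difference. A negative mean difference relative to each other member was therefore fixed in advance, and the p-values here are no separate support. The same separation held for Fmod minus Bgn, with a difference of -0.55, and for Fmod minus Prelp, with -0.49 (exact permutation p = 0.1 in each case). Against the other 6 members the groups overlapped. Against the median of the 9 the difference was -0.73, with overlapping groups and an exact permutation p of 0.2.

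Other genes of the same matrix were read from lists of the family's partners. All 9 measured fibrillar collagens, the scaffold to which the members bind, had a lower mean in null, with a median of -0.20, and 0 were called, but with median centring 6 of 9 were lower and the median was -0.04. Col5a2, a chain of type V collagen, which starts fibrils, had the smallest p of them with 11.73, 11.60 and 11.41 in null against 11.84, 11.96 and 11.92 in wild type. Its groups did not overlap, and the difference was -0.33 ± 0.12 (SE, limma adjusted p 0.977). Col1a2, a chain of type I collagen, was also lower in every null array, with -0.23 ± 0.10. With median centring the groups overlapped for Col5a2 and for Col1a2, whose difference was then -0.03. The differences of Col1a1, Col2a1 and Col3a1 were -0.20 ± 0.15, -0.19 ± 0.14 and -0.09 ± 0.11, with overlapping groups. All 7 measured collagen cross-linking enzymes had a lower mean in null too (median -0.15, 0 called), or 6 of 7 with median centring, among them Lox with -0.25 ± 0.12 and Loxl4 with -0.40 ± 0.26.

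The enzymes that build the sugar chains were read as a list for each kind of chain. Of 15 measured genes of chondroitin and dermatan sulphate synthesis 11 were lower and 4 higher in null (median -0.07, 0 called). On the values as deposited 15 of 15 were lower (median -0.21), and with median centring 9 were lower and 6 higher. Chst11, a chondroitin sulphotransferase with a signal near background, gave 3.65, 4.49 and 4.47 in null and 4.53, 4.97 and 5.11 in wild type, a difference of -0.67 ± 0.30 with groups that did not overlap. Chst14, the dermatan sulphotransferase, likewise did not overlap, with -0.23 ± 0.12, and B4galt7, which acts on the linker to the protein, gave -0.04 ± 0.22. Of 6 measured genes of keratan sulphate synthesis 2 were lower and 4 higher in null (median 0.05, 0 called), or 5 lower on the values as deposited (median -0.11), among them Chst2 with -0.38 ± 0.16 and Chst1 with 0.09 ± 0.12. Whether these lists differ from each other was not tested.

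A list of 12 genes held proteases that act on the family or on its partners, and also Pcolce. Pcolce enhances the cleavage of procollagen and is not itself a protease. It differed by -0.11 ± 0.11, with overlapping groups. Of the 12 genes, 9 were lower and 3 higher in null (median -0.21, 0 called). The exception with the smallest p was Bmp1, the procollagen C-proteinase, which also trims the propeptides of biglycan and decorin. Bmp1 gave 8.89, 9.09 and 8.99 in null and 8.69, 8.64 and 8.68 in wild type. Every null array was above every wild type array, with a difference of 0.32 ± 0.10 (SE, unadjusted limma p 0.0209, adjusted p 0.945), opposite in sign to 9 of the 10 members. On the values as deposited the Bmp1 difference was 0.19 and the groups overlapped. Tll1, its relative, was below the background of 3.93 on every array, and there its groups differed by 0.86 ± 0.43. Of 14 growth factors and receptors that members bind, 7 were lower and 7 higher (median -0.04, 0 called), or 12 lower on the values as deposited. Ccn2, a connective tissue growth factor, gave 9.98, 10.07 and 10.21 in null and 10.48, 10.45 and 10.67 in wild type, with no overlap and a difference of -0.45 ± 0.12 (limma adjusted p 0.884). Vegfa, the vascular growth factor, was also lower in every null array, with a difference of -0.98 ± 0.38 and null replicate 3 lowest. Tgfb2 gave 0.26 ± 0.17 and Igf1r, the receptor of Igf1, 0.09 ± 0.15.

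Proteoglycans outside the family, the syndecans and Srgn among them, were mostly lower in null. Of 12 measured, 10 were lower and 2 higher (median -0.16, 0 called), or 8 and 4 with median centring, and the smallest p values belonged to Cspg4 with -0.40 ± 0.22 and Srgn with -0.22 ± 0.14, both with overlapping groups. Of the family's other genes, Chad, a collagen-binding protein of cartilage, gave -0.31 ± 0.32. Optc, which lies beside Prelp on chromosome 1, was not above background, with means of 1.08 in null and 0.16 in wild type.

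**Figure D4:**
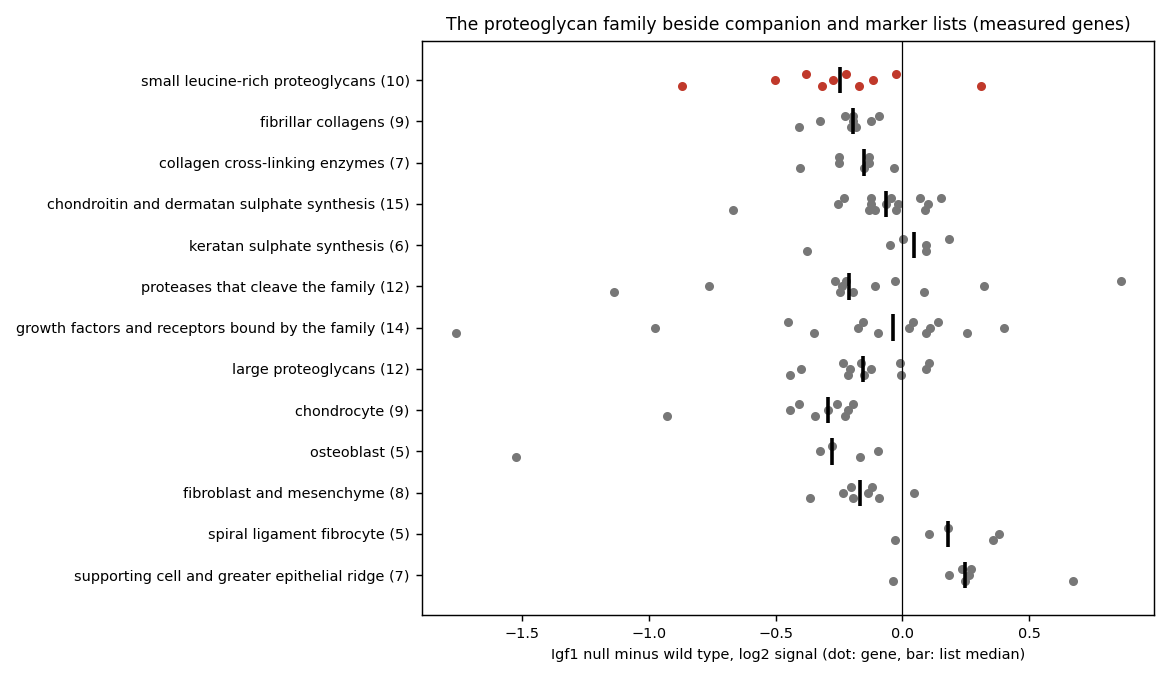
Null minus wild type difference (log2) of each measured gene of the member family and of the partner and cell type lists, 1 row per list and 1 point per gene, with a bar at each list's median. Under quantile normalization the fibrillar collagens, cross-linking enzymes and chondrocyte markers lie wholly below 0, and most supporting cell and spiral ligament markers lie above it. The row of large proteoglycans also holds the syndecans and Srgn, and the protease row also holds Pcolce. Some genes stand in more than 1 row.

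Markers of the cell types in the dissected tissue also differed between the pools, and their part in the family's differences was not tested. Of the 9 chondrocyte markers 9 were lower in null (median -0.29, 0 called), and their summed signal was 14.30 to 14.75 in null and 14.66 to 14.94 in wild type on the log2 scale. The 9 remained lower with median centring (median -0.18). The sum was lowest in replicate 1 of each genotype, as were Fmod, Prelp and Bgn. All 5 measured osteoblast markers were lower in null (median -0.28), with sums of 9.76 to 11.52 in null and 10.69 to 10.86 in wild type. Of the 8 fibroblast and mesenchyme markers 7 were lower (median -0.17), or 4 with median centring (median -0.03), with sums of 14.36 to 14.45 in null and 14.43 to 14.65 in wild type. The summed signal of the 10 members was 13.88, 13.87 and 14.03 in null and 14.18, 14.11 and 14.35 in wild type, without overlap. The sum of the protease list, Pcolce included, was separated in the same direction, with 12.64 to 12.78 in null and 12.81 to 12.97 in wild type. These sums were taken under quantile normalization, and the brightest genes weigh most in them. Some lists share genes and are not separate observations. Col2a1 and Col11a2 are fibrillar collagens that are also in the chondrocyte list. Col1a1 and Col3a1 are likewise also in the fibroblast and mesenchyme list. Acan is in the chondrocyte list and in that of the other proteoglycans.

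Markers of the sensory and ligament parts had the opposite sign. Of 5 spiral ligament fibrocyte markers 4 were higher in null (median 0.18, and 0.06 on the values as deposited), with sums of 11.91 to 12.53 in null and 11.73 to 12.32 in wild type. Of 7 measured supporting cell markers 6 were higher (median 0.25, and 0.11 on the values as deposited), with sums of 11.48 to 11.99 in null and 11.29 to 11.75 in wild type. In both lists wild type replicate 2 was the lowest array, as it was among the wild type arrays for the members on chromosomes 10 and 13. Of 6 hair cell markers 5 were higher (median 0.11), or 1 on the values as deposited (median -0.08), with sums of 8.47 to 8.81 in null and 8.42 to 8.65 in wild type. Both measured vestibular markers, Oc90 and Hmx3, were higher in every null array (with overlap on the values as deposited), although that tissue was left out of the dissection, and their sum was 10.74 to 11.69 in null and 9.99 to 10.48 in wild type. The sums of 5 skeletal muscle markers varied widely between pools, with 12.20 to 13.95 in null and 12.20 to 13.90 in wild type (median difference 0.05, and -0.03 on the values as deposited). Of 5 endothelial and 5 macrophage markers 4 each were lower in null, with medians of -0.11 and -0.22, and both measured tendon markers were higher (median 0.31). None of these lists held a called gene, so 0 were called in each.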

How the data were processed

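RNA pools of 4 cochleae, 3 per genotype, were hybridised to 1 Affymetrix array each. The deposited values are log2 signals per probe set and array, the log base being inferred from their range; no source used here names the authors' summarisation or background correction. Groups and replicate numbers came from the sample titles.

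Quantile normalization was applied to 22626 probe sets, after removal of 64 controls. Of these, 20380 were annotated to 1 gene, 691 to several and 1555 to none; symbols were looked up in the RefSeq table of GRCm38.p6. A gene's value is that of its brightest probe set on average over the 6 arrays. The genotype difference was tested two-sided with lmFit and eBayes of limma 3.58.1 (R 4.3.3), fitted over all probe sets or all genes with Benjamini-Hochberg adjustment at 0.05, and checked on simulated data. Single values were compared by exact permutation of arrays. Summed list signals were added on the linear scale and given as log2.

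The members, lists and motifs were chosen with earlier results of these data known. Named beside the members were Igf1, the 2 genes of smallest unadjusted p in each partner list, and Col1a1, Col1a2, Col2a1, Col3a1, Chad, Optc, B4galt7, Tgfb2 and Bmp1; Dse and Xylt1 were not analysed here. Genes outside this rule, such as Oc90, Hmx3, Igf1r, Trap1a and Hsd17b3, were named after their values were seen. After removal of genotype means, same-numbered arrays correlated at 0.14, 0.29 and 0.12 across probe sets above the 40th percentile of signal. Null and wild type arrays of unlike number correlated between -0.21 and 0.05. The replicate numbers were therefore treated as pairs in a blocked alternative, a reading that rests on the data and not on a label.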

Additional observations from a re-analysis of the deposited data

How the results depend on the processing

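Under 18 alternatives (other scalings, blocks, variance models, filters, a covariate of Y-linked signal and leaving out arrays) no member was called, and Dcn, Bgn, Fmod, Lum, Prelp, Omd and Ogn kept a lower mean in null in each. Fmod ran from -1.11 to -0.72, with a smallest limma adjusted p of 0.508, and was -0.96 without replicate 1 of both genotypes. The median over the members was -0.25 with the replicate block and with the second title number as a block, -0.32 on the values as deposited, where the median over all genes was -0.14, -0.15 with median centring and -0.17 without replicate 1 of both genotypes, whose titles carry another number (14) than the rest (16) with no meaning given. With median centring Dcn was at -0.003. The replicate block changed no call and counted 713 genes at an unadjusted p below 0.05. Aspn reversed to 0.039 with median centring and to 0.22 with the Y-linked covariate, and ran from -0.22 to 0.12 when single arrays were left out. Kera reversed to -0.11 with array weights and to -0.57 without wild type replicate 2; leaving out single arrays it ran from -0.57 to 0.77, and it was highest, at 0.85, with the Y-linked covariate. Epyc reversed to 0.012 with the Y-linked covariate. The mean Y-linked signal was 0.39, 2.98 and 3.53 in null replicates 1, 2 and 3, and -0.23, 2.70 and 0.66 in wild type. It was thus uneven between the pools and between the genotypes. Between 7 and 10 members were lower in null. The count of genes called was 0 except for 1 with the Y-linked covariate (Trap1a) and 1 without null replicate 3 (Hsd17b3), a leave-one-out range of 0 to 1, neither gene being a member. Genes at an unadjusted p below 0.05 numbered 612, but 1030 with array weights and 350 when only genes above the 40th percentile of signal were tested; for probe sets that filter gave 673 in place of 1130. The causes were not tested. The filter leaves fewer genes to test and drops the dimmer ones. In the main fit 9.46% of genes below the 25th percentile of signal had an unadjusted limma p below 0.05. From the 90th percentile upward the share was 2.10%.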
